A study of Xenopus laevis with 31 samples.

Results

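Vegetal explants of the Xenopus laevis gastrula were compared with equatorial explants of the same stage on Affymetrix Xenopus arrays. Samples were taken by their labelled condition, which gave 2 vegetal and 2 equatorial arrays, 4 of the 31 arrays in the series. The series was made to find the transcripts of the gastrula endoderm and to test their dependence on nodal signals, Mixer and Sox17.

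The vegetal pole of the frog embryo forms the endoderm, the source of the gut lining, and the equatorial belt above it forms mesoderm together with some endoderm. Maternal RNAs stored near the vegetal pole of the egg, among them that of the T-box factor VegT, start the endoderm programme. VegT turns on nodal ligands, secreted signals of the TGF-beta family that act on both regions, and with them transcription factors such as Mixer and the Sox17 proteins. Germ plasm, the material that specifies germ cells, is also stored vegetally, so vegetal cells differ from equatorial ones in maternal as well as newly made RNA.

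The vegetal explants were labelled as dissected vegetal pole (endoderm) and the equatorial explants as mesendoderm, and both were uninjected tissue collected at stage 11, a gastrula stage. Each sample pooled about 50 explants from sibling embryos. No dissection stage is given for either region, and no label says which samples shared a mating. The p-values therefore measure only the spread between samples within groups, estimated over all 31 arrays of the series. Set beside them were embryos injected vegetally at the 2-cell stage and collected whole at stage 11. These carried 1 ng of Cerberus-Short RNA, which encodes a secreted inhibitor of nodal ligands (n = 3 arrays), 40 ng of an antisense morpholino against Mixer (n = 2), or 3 Sox17 morpholinos at 20 ng each (n = 3). The doses are those of the protocol, and the array title of Mixer-MO replicate 1 gives 32 ng instead. Animal caps, the explants that form ectoderm, were cut at stage 9 and collected at stage 11 (n = 3). Eggs (n = 3), whole stage 11 controls (n = 9) and whole stage 18 embryos (n = 4) gave the levels over time, with about 20 embryos pooled per sample. No control RNA or control morpholino is labelled, so an effect of injection itself cannot be told apart from that of each reagent.

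Values are linear intensities after the authors' RMA normalization, 1 per probe set and array, and differences are on the log2 scale. A probe set is a group of short probes against 1 transcript or several. Probe sets are named by their identifiers because no table used here pairs them with genes. The number after Xl. is a cluster number, and the endings _a_at, _s_at and _x_at mark probe sets that can match several transcripts, whose values are uncertain in origin. Markers of endoderm, mesoderm, ectoderm and germ plasm were therefore not looked up, and the tissue labels stand as given. In pooled tissue, fewer cells of a type and less RNA per cell cannot be told apart.

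Vegetal replicate 2 had the highest beta-actin value of the series in a measure of RNA quality. For beta-actin, the log2 level of the 3' probe set minus that of the 5' one, which grows as RNA is degraded, was -1.50 and 1.70 in vegetal replicates 1 and 2, against -2.12 and -2.71 in equatorial replicates 1 and 2. The next highest value of the series was 1.49, in Mixer-MO replicate 2. For GAPDH the differences were 2.39 and 2.75 in vegetal explants, against 2.19 and 2.59 in equatorial explants, all within the range of the other arrays, 0.92 to 3.90. Median intensities were 72.9 and 68.8 in vegetal explants and 77.4 and 70.1 in equatorial explants. The vegetal replicates were at least 2-fold apart for 2100 probe sets (13.6%), and the equatorial replicates for 972 (6.29%).

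Vegetal explants were higher than equatorial explants for 367 of 15443 probe sets and lower for 371, at an adjusted p under 0.05 and a change of at least 2-fold (limma, Benjamini-Hochberg). These are 2.38% and 2.4% of the probe sets tested. The spread was estimated over all 31 arrays, and the 2 vegetal and 2 equatorial arrays fitted alone gave 97 and 102 calls. The higher ones had a median log2 difference of 1.65, or 3.14-fold, and the lower ones a median of -1.87, or 3.65-fold, while the median over all probe sets was 0.135. Their numbers were nearly equal in this fit. They were 429 higher and 313 lower with median centring, and 256 and 386 without the dimmest 40% of probe sets. At least 4-fold changes numbered 119 among the higher and 165 among the lower probe sets, and at least 8-fold changes 45 and 48. Only the largest differences lay mostly on the vegetal side. At least 16-fold changes numbered 20 among the higher and 5 among the lower probe sets, and at least 32-fold changes 5 and 0. Both arrays of each group lay apart from both of the other for all 738. Over all probe sets, both vegetal arrays were above both equatorial arrays for 33.9% and below them for 20%.

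**Figure D1:**
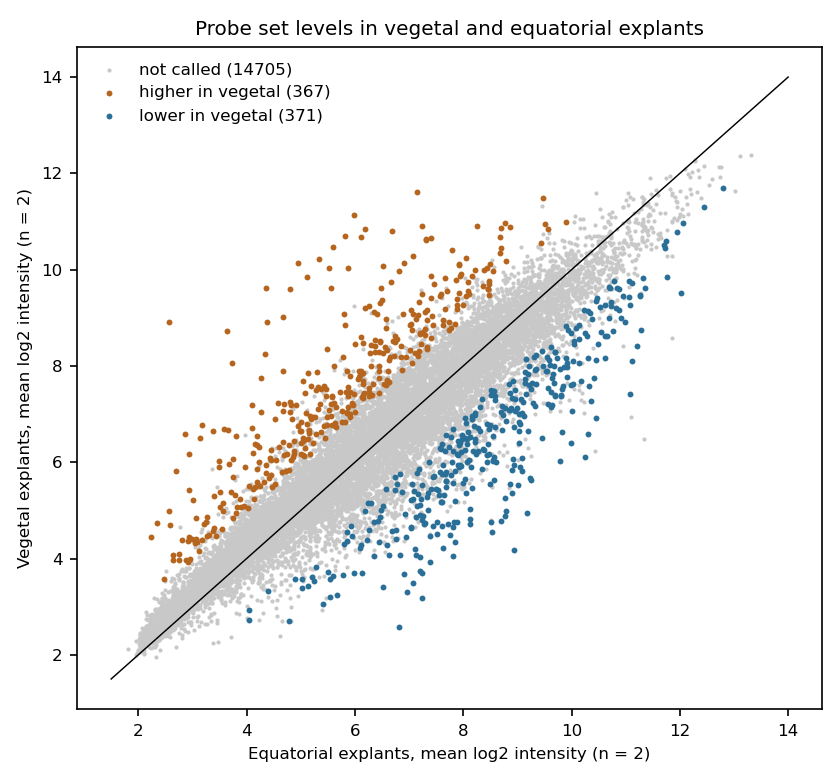
Mean log2 intensity of each of the 15443 probe sets in vegetal explants (vertical axis, n = 2) against equatorial explants (horizontal axis, n = 2). Coloured points are the 367 probe sets that were higher and the 371 that were lower in vegetal explants, and the line marks equal levels.

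The array titles of Cerberus-Short replicate 3 and stage 11 control replicate 6 carry a letter code, H, and the meaning of the code is not given. Vegetal replicate 2 and equatorial replicate 1 share this code. Within this pair, 332 of the 367 were at least 2-fold higher in the vegetal array and 356 of the 371 at least 2-fold lower, where all probe sets had 8.35% and 13.2%. The members were chosen on these same arrays, which largely fixes those counts. In the remaining pair of arrays, vegetal replicate 1 and equatorial replicate 2, the median log2 difference of the 367 was 1.69, against 1.59 in the H pair. For the 371 the medians were -1.48 and -2.19 in the same order. The lower probe sets thus differed more in the pair that holds vegetal replicate 2, and the part of RNA quality in that was not tested.

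The numbers of calls depended on single arrays. Without vegetal replicate 2 the calls were 188 higher and 106 lower, and without vegetal replicate 1 they were 386 and 639. They were 183 and 141 without equatorial replicate 1, and 154 and 122 without equatorial replicate 2. Of the original calls, 158 higher and 100 lower ones were called again without vegetal replicate 2.

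Among the 15 largest positive differences, vegetal intensities ran from 301.7 to 3200, against 5.86 to 159.6 in equatorial explants. The fold differences ran from 22.0 to 81.3 and the adjusted p-values from 6.46e-08 to 7.39e-05. With 16 added to every intensity the log2 differences were 3.75 to 4.85, so the folds over the dimmest equatorial values are uncertain in size. The 15 fell into kinds by their levels over time. The choice of members did not use these levels, but the spread within those groups entered the tests behind it. In the egg, against whole stage 11 controls, 6 were higher, 8 were lower and 1 passed in neither direction. All eggs carry a title letter, L, that no other array carries, so egg and letter cannot be told apart. Over all probe sets 11.4% were higher and 10.5% lower in the egg.

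The probe set with the largest difference, Xl.7252.1.S1_at, had intensities of 446.6 and 527 in vegetal explants, against 6.08 and 5.86 in equatorial explants. The groups were far apart, and the log2 difference was 6.35 (SE 0.69, limma adjusted p = 1.08e-06). Over development it read 373.5, 350.3 and 339.2 in the 3 eggs, a median of 44.4 in whole stage 11 controls (19.4 to 127.8), and 10.6, 15.0, 16.1 and 7.86 at stage 18. The egg held far more of this RNA than the gastrula, by log2 2.75 (limma adjusted p = 2.98e-05), and stage 18 embryos less, by log2 -2.15. Animal caps lay between 5.21 and 7.12, as low as the equatorial explants.

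Xl.14891.1.S1_at had 809.3 and 762.8 in vegetal explants, against 18.2 and 22.9 in equatorial explants, a 38.5-fold difference. Its 3 eggs read 368.6, 319.8 and 471.3, and its 4 stage 18 samples 18.7 to 34.6. Like the first, it was high in the egg and low later, and its animal caps (21.2 to 25.9) stood at the equatorial level.

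Xl.25780.1.S1_at was the brightest of the egg-higher kind, at 3198 and 1587 in vegetal explants, against 63.4 and 62.5 in equatorial explants. Eggs read 961.5, 2682 and 1505, and stage 18 embryos 24.9 to 37.7. The vegetal replicates were uneven, as were the eggs, yet both stood far above every equatorial and stage 18 array.

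The remaining egg-higher probe sets were Xl.670.1.S1_at, Xl.311.1.S1_at and Xl.1145.1.S1_at. Xl.670.1.S1_at had 1709 and 1614 in vegetal explants, against 71.2 and 44.3 in equatorial explants. Xl.311.1.S1_at had 874.9 and 694 in vegetal explants, against 23.7 and 32.4 in equatorial explants. In Xl.1145.1.S1_at the vegetal replicates were uneven, at 1882 and 581.8, against 43.8 and 48.0 in equatorial explants. All 6 were lower at stage 18 than at stage 11, against 14.2% of all probe sets. With Cerberus-Short their log2 differences from controls were -0.32 to 0.40, with adjusted p-values near 1 (limma).

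Xl.38.1.S1_at was higher in vegetal explants at each replicate, 1398 and 1030, against 39.0 and 41.6 in equatorial explants. Its mean level differed little from the stage 11 controls, by log2 -0.22 in the egg and -0.26 at stage 18. Neither difference passed the test (limma adjusted p = 0.688 and 0.481). Stage 18 samples were uneven, at 181.5, 670.3, 276.9 and 127.5, against 202.3 to 462 in controls, so a steady level is not shown for that stage.

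The 8 egg-lower probe sets were dim in the egg and bright in the vegetal explants. Xl.5999.1.A1_at had 1439 and 872.7 in vegetal explants, against 34.3 and 27.6 in equatorial explants. Eggs read 17.9, 14.6 and 16.1, stage 11 controls 173.3 to 418.3, and stage 18 embryos 63.9 to 351.4. The vegetal level lay above every whole-embryo array.

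Xl.44.1.S1_s_at, which can match several transcripts, had 3200 and 3054 in vegetal explants, against 159.6 and 126.5 in equatorial explants. The eggs read 16.9, 16.1 and 16.6, the lowest egg level relative to controls of the 15 (log2 -5.79). It was the 1 probe set of these 15 whose equatorial explants passed the test against animal caps (18.1 to 43.6), by log2 2.49 (limma adjusted p = 0.0117). Over all probe sets 0.667% were higher and 0.136% lower in equatorial explants than in caps. A second probe set of the same cluster, Xl.44.1.S1_at, was higher in vegetal explants by log2 4.13.

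After stage 11 the egg-lower probe sets parted. Xl.6024.1.S1_at had 611.7 and 376.4 in vegetal explants, against 22.4 and 19.2 in equatorial explants, and it went on rising in whole embryos. Stage 18 samples read 461.5, 1233, 515.4 and 590.9, all above the highest stage 11 control, 261.1 (log2 2.31, limma adjusted p = 4.13e-07). Xl.3534.1.A1_at, at 1501 and 1356 in vegetal explants against 53.2 and 43.6 in equatorial explants, was also higher at stage 18, by log2 1.54. Xl.3793.1.S1_at took the opposite course. It had 1539 and 2174 in vegetal explants against 128.5 and 41.7 in equatorial explants, while stage 18 samples read 23.8 to 58.6, against 415.8 to 1621 in stage 11 controls (log2 -4.37, limma adjusted p = 1.33e-11).

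The other egg-lower probe sets were Xl.24918.1.A1_s_at, Xl.578.1.S1_at and Xl.579.1.S1_at. Xl.24918.1.A1_s_at had 301.7 and 588.9 in vegetal explants, against 11.9 and 13.0 in equatorial explants. For Xl.578.1.S1_at the values were 736 and 1140 in vegetal explants, against 38.5 and 31.0 in equatorial explants. Xl.579.1.S1_at had 1828 and 1470 in vegetal explants, against 85.2 and 56.4 in equatorial explants.

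**Figure D2:**
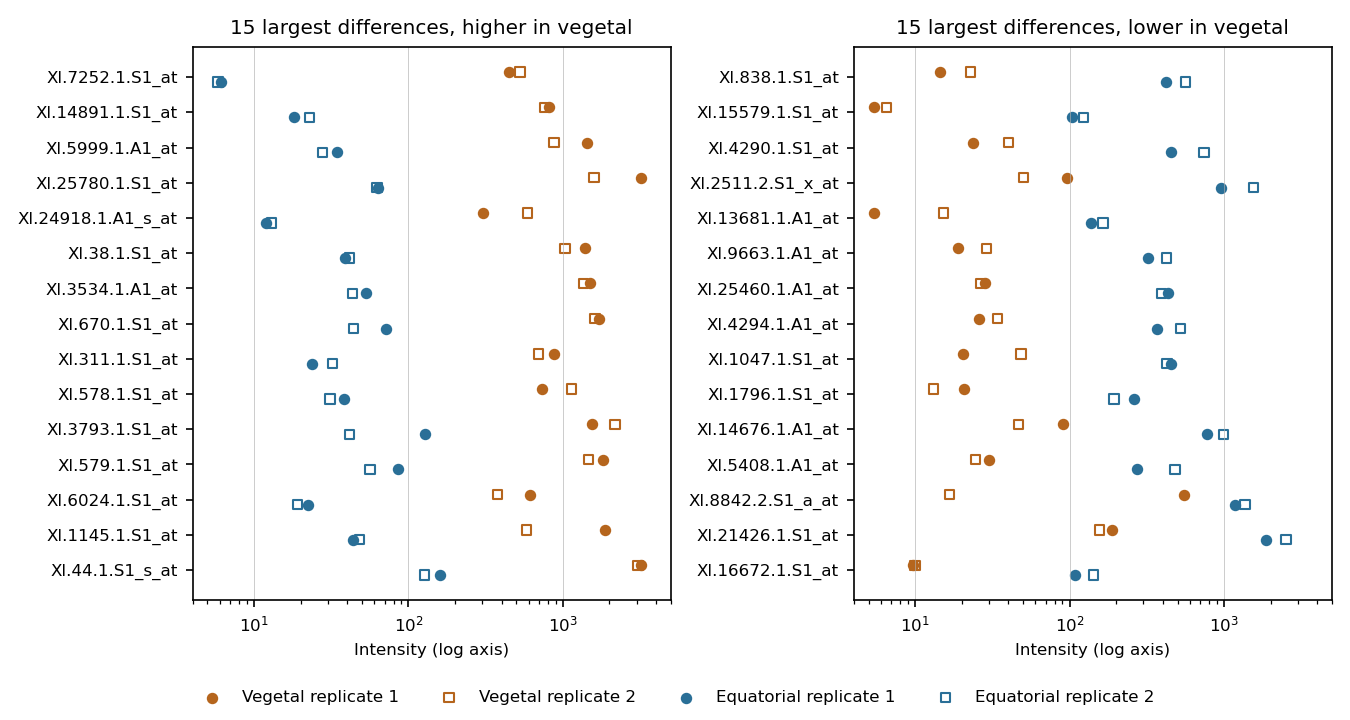
Intensity (log axis) of the 15 probe sets with the largest differences in each direction, with filled and open symbols for replicates 1 and 2 of the vegetal and equatorial explants. The groups do not overlap in any of the 30, and Xl.8842.2.S1_a_at has the vegetal replicates farthest apart (551.2 and 16.7).

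Among the 15 largest negative differences, vegetal intensities ran from 5.42 to 551.2, against 103.8 to 2520 in equatorial explants. The folds, 12.6 to 26.8, were smaller than on the other side. In the egg 13 of the 15 were lower than in stage 11 controls, against 10.5% of all probe sets. Their log2 differences were -2.75 to -7.05, and 2 of the 15 did not pass the test. These equatorial RNAs were mostly at a similar level in animal caps. Equatorial explants differed from caps by log2 -1.17 to 1.41 for the 15, with limma adjusted p-values from 0.526 to 0.997.

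Xl.838.1.S1_at showed the largest negative difference. It had 14.5 and 22.9 in vegetal explants, against 421 and 564.5 in equatorial explants (log2 -4.74, SE 0.61, limma adjusted p = 1.16e-05). Animal caps were brighter still, at 652.5 to 1257, against 220.6 to 459.2 in stage 11 controls. The vegetal explants were the low tissue. Caps lay above both equatorial arrays, but that difference did not pass the test (equatorial minus caps log2 -0.99, limma adjusted p = 0.928).

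Xl.15579.1.S1_at had 5.44 and 6.56 in vegetal explants, against 103.8 and 123.3 in equatorial explants. Xl.4290.1.S1_at had 23.8 and 40.4 in vegetal explants, against 451.3 and 742 in equatorial explants. Both were lower in all 3 eggs than in every stage 11 control, at 5.70 to 11.7 and 8.06 to 10.5 in eggs, against 42.1 to 188.2 and 204.4 to 1050 in controls.

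Xl.21426.1.S1_at was the brightest of the 15, at 188.1 and 157.1 in vegetal explants, against 1879 and 2520 in equatorial explants. Its egg values of 14.4 to 17.3, against 1623 to 2544 in stage 11 controls, made the largest egg difference (log2 -7.05). Xl.1047.1.S1_at had 20.5 and 48.6 in vegetal explants, against 455 and 427.9 in equatorial explants. It was bright at stage 11 only among the 3 stages measured. Eggs read 16.6 to 17.4, stage 11 controls 263.9 to 452.1 and stage 18 embryos 19.4 to 33.9.

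Xl.2511.2.S1_x_at, which can match several transcripts, had 96.0 and 50.1 in vegetal explants, against 955.6 and 1557 in equatorial explants. Of the other probe sets of its cluster, 3 were also called lower, by log2 -1.53 to -3.06, and 1 was not called (log2 -0.45). Xl.25460.1.A1_at was 1 of the 2 that did not pass in the egg. It had 28.4 and 26.5 in vegetal explants, against 435.1 and 393.3 in equatorial explants, while its eggs (189.7 to 241.3) overlapped the stage 11 controls (161.4 to 561.9).

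Xl.13681.1.A1_at had 5.42 and 15.3 in vegetal explants, against 137.5 and 164.5 in equatorial explants, and its Cerberus-Short values of 169.9 to 175.7 lay within the control range of 92.1 to 196.3. Xl.1796.1.S1_at had 20.9 and 13.2 in vegetal explants, against 263.3 and 193.9 in equatorial explants. Its animal caps, 39.8 to 149.4, lay below both equatorial arrays, though the difference did not pass the test.

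Xl.9663.1.A1_at had 18.9 and 28.9 in vegetal explants, against 323.6 and 425.9 in equatorial explants. Xl.4294.1.A1_at had 25.9 and 34.2 in vegetal explants, against 370.5 and 521.3 in equatorial explants. Both were dim in the egg, at 15.6 to 22.8 and 20.9 to 29.4. Another probe set of the cluster of Xl.4294.1.A1_at, Xl.4294.3.A1_at, was not called (log2 -0.85). Xl.14676.1.A1_at had 90.5 and 46.7 in vegetal explants, against 781.5 and 990.9 in equatorial explants. Xl.5408.1.A1_at, with 30.1 and 24.6 in vegetal explants against 274.5 and 481.6 in equatorial explants, was also higher in animal caps than in stage 11 controls, by log2 1.42.

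The last of the 15 rest on less. Xl.16672.1.S1_at had 9.74 and 10.0 in vegetal explants, against 108.6 and 143 in equatorial explants, and its call was lost in 5 of the 16 alternatives run. Xl.8842.2.S1_a_at had 551.2 and 16.7 in vegetal explants, against 1170 and 1367 in equatorial explants, and its call was lost in 6 of 17. Its log2 difference ran from -6.25 to -1.20 over the alternatives, and the low value is that of vegetal replicate 2. Of the other probe sets of that cluster number, 3 were not called, at log2 0.18, -0.45 and -0.90.

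**Figure D3:**
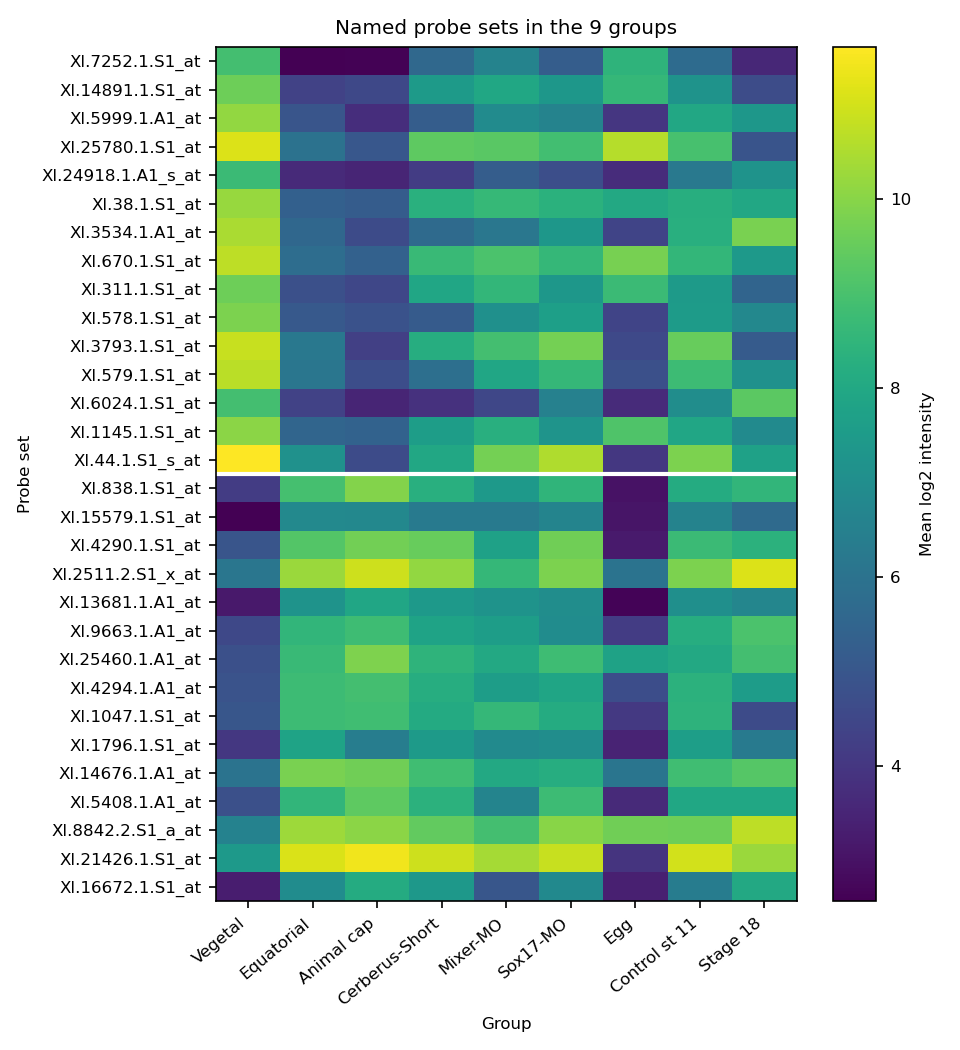
Mean log2 intensity of the 30 named probe sets (rows, 15 higher in vegetal explants above the white line, 15 lower below it) in the 9 groups (columns). Xl.7252.1.S1_at and Xl.25780.1.S1_at are bright in the egg column and dark at stage 18. Other rows, such as Xl.38.1.S1_at and Xl.8842.2.S1_a_at, are bright in both. Most lower rows are dark in both the vegetal and the egg columns.

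Whole-embryo groups placed the full sets in time. The comparisons of eggs, stage 18 embryos, injected embryos and animal caps all use the same 9 stage 11 control arrays, so their counts are not independent of each other. The differences themselves use no vegetal or equatorial array, but the spread behind their p-values was estimated over all 31 arrays, those included. Every egg difference is also a difference between the title letter of the eggs, L, and the other letters, and these cannot be told apart. Of the 367 vegetal-higher probe sets, 47 (12.8%) were higher in the egg and 76 (20.7%) lower, against 11.4% and 10.5% of all probe sets (limma, adjusted p under 0.05 and at least 2-fold). Of the 371 vegetal-lower ones, 58 (15.6%) were higher in the egg and 147 (39.6%) lower. The share low in the egg was thus above that of all probe sets in both, with the larger share among those lower in vegetal explants. Members passed a test with this same spread, which favours probe sets of small spread in every comparison. In stage 11 controls the vegetal-lower set was also brighter, at median log2 intensities of 7.86 to 8.14, against 6.06 to 6.25 over all. The part of spread and brightness in these shares was not tested. For the vegetal-higher set, 244 passed in neither direction.

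These shares depended on the arrays behind the calls. Of the vegetal-lower calls, 77 of 106 (72.6%) were lower in the egg without vegetal replicate 2, and 145 of 639 (22.7%) without vegetal replicate 1. They were 82 of 141 (58.2%) without equatorial replicate 1, and 59 of 122 (48.4%) without equatorial replicate 2. The vegetal-lower calls higher in the egg were 5 of 106 (4.72%) without vegetal replicate 2 and 8 of 141 (5.67%) without equatorial replicate 1, the H pair. Without vegetal replicate 1 and equatorial replicate 2 they were 100 of 639 (15.6%) and 19 of 122 (15.6%). For the vegetal-higher calls, the share lower in the egg ran from 14.8% without vegetal replicate 1 to 26.6% without equatorial replicate 2.

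At stage 18, 46 of the 367 (12.5%) were higher and 85 (23.2%) lower than at stage 11, against 12.2% and 14.2% of all probe sets. Of the 371, 50 (13.5%) were higher and 49 (13.2%) lower, both near the background. For the vegetal-higher set, the share that was lower at stage 18 was above that of all probe sets, and the part of the shared spread in that was not tested.

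In animal caps, against whole stage 11 controls, 98 of the 367 (26.7%) were lower and 2 (0.545%) higher, against 1.62% and 0.764% of all probe sets. Of the 371, 30 (8.09%) were higher and 12 (3.23%) lower. The median log2 difference of caps from controls was -0.584 for the vegetal-higher set and 0.384 for the vegetal-lower set, against -0.0084 over all probe sets. The median levels put the caps at or below the equatorial explants for the vegetal-higher set. Members of both sets were chosen on the vegetal and equatorial arrays, which largely fixes the gap between those medians and bears on their place relative to caps. Its median log2 intensity was 7.54 and 7.65 in vegetal explants, against 5.76 and 5.64 in equatorial explants, and 5.26 to 5.38 in caps. Whole stage 11 controls lay between, at 6.20 to 6.57.

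For the vegetal-lower set the medians were 6.85 and 6.05 in vegetal explants, against 8.47 and 8.54 in equatorial explants, and 8.54 to 8.70 in caps. Equatorial explants and caps were nearly level, and whole controls read 7.86 to 8.14. The vegetal replicates differed from each other by more here than for the vegetal-higher set, with the lower value in replicate 2.

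**Figure D4:**
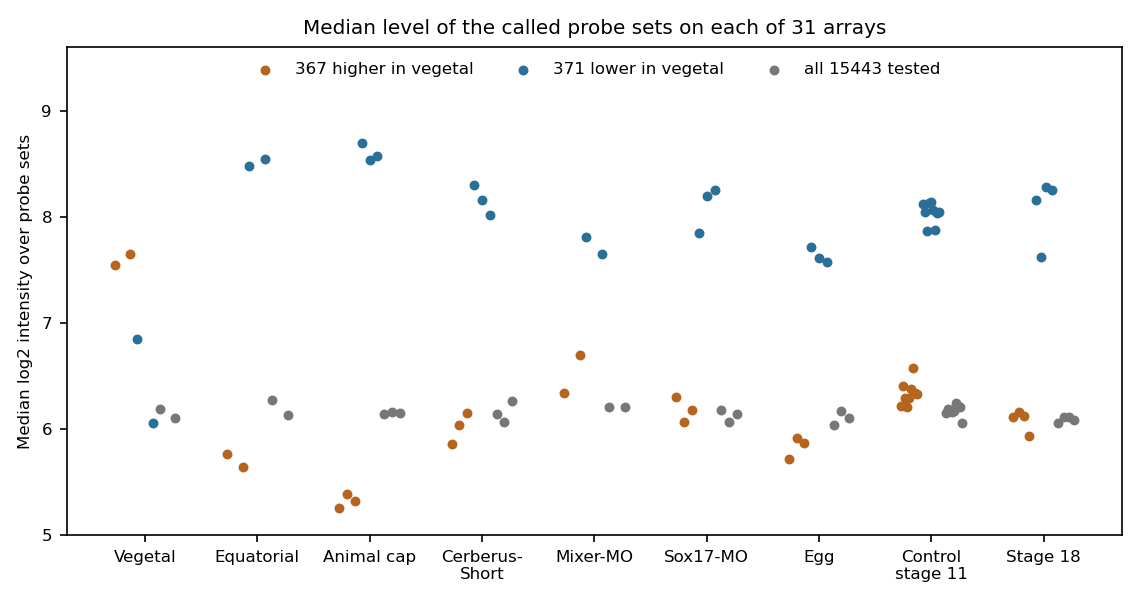
Median log2 intensity over the 367 vegetal-higher, the 371 vegetal-lower and all 15443 probe sets on each of the 31 arrays, by group. The 2 vegetal arrays alone have the vegetal-higher median above 7, and the animal caps have the lowest, 5.26 to 5.38. Members were chosen on the vegetal and equatorial arrays, which largely fixes the medians there. Vegetal replicate 2 has the lowest vegetal-lower median, 6.05.

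Part of the vegetal-higher set was lower in embryos injected with Cerberus-Short than in controls. Whether this came from the block of nodal signals or from injection itself was not tested. With Cerberus-Short, 28 of the 367 (7.63%) were lower than in controls, against 0.304% of all probe sets, which is 47 (limma, adjusted p under 0.05). By limma 0 of the 367 were higher, and 0 of all probe sets, with 3 and 125 higher at an unadjusted p under 0.05. Of the 371 vegetal-lower probe sets, 0 passed in either direction by limma, with 12 (3.23%) at an unadjusted p under 0.05, against 322 (2.09%) of all probe sets. The median log2 difference was -0.134 in the vegetal-higher set and 0.0770 in the vegetal-lower set, against 0.0112 over all. A decrease was more widespread than the 28 calls, since 75 of the 367 were lower at an unadjusted p under 0.05, against 197 of all probe sets, and 74.1% of the set lay below 0, against 47.0% of all. The count was 24 of 386 (6.22%) without vegetal replicate 1 and 30 of 188 (16.0%) without vegetal replicate 2. It was 22 of 183 (12.0%) without equatorial replicate 1 and 23 of 154 (14.9%) without equatorial replicate 2, and without Cerberus-Short replicate 3, with the set unchanged, it was 18.

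All 3 Cerberus-Short arrays lay below all 9 controls in 42 of the 367, against 0.479% of all probe sets. This was so in 27 of the 28 called, which the call itself largely fixes. The folds of the 28 ran from 1.97 to 9.03. Xl.6024.1.S1_at showed the largest. It had 24.9, 10.9 and 11.0 with Cerberus-Short, against a control median of 128.5 (78.4 to 261.1), a 9.03-fold decrease (log2 -3.17, SE 0.33, limma adjusted p = 7.37e-06).

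Xl.579.1.S1_at had 110.8, 69.9 and 25.6 with Cerberus-Short, against a control median of 397.6 (324.8 to 676.3), a 7.45-fold decrease. Xl.5999.1.A1_at had 50.0, 56.3 and 19.1 with Cerberus-Short, against 241.8 (173.3 to 418.3) in controls, a 6.72-fold decrease. In Xl.3534.1.A1_at the values were 79.5, 86.7 and 20.3 with Cerberus-Short, against 311.6 (191.1 to 715) in controls. Replicate 3 was the lowest in each of these 3, and all Cerberus-Short arrays lay under all controls.

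Of the 15 named vegetal-higher probe sets, 7 were called lower with Cerberus-Short, against 0.304% of all probe sets. All 7 were from the egg-lower kind. The other 3 were Xl.578.1.S1_at (5.19-fold), Xl.24918.1.A1_s_at (4.14-fold) and Xl.44.1.S1_s_at (3.56-fold). Xl.24918.1.A1_s_at is the 1 of the 28 whose groups touched, at 30.6, 22.5 and 8.52 with Cerberus-Short, against 27.6 to 147.8 in controls. The eighth egg-lower probe set, Xl.3793.1.S1_at, had 397.1, 257.6 and 245.3 with Cerberus-Short, against 415.8 to 1621 in controls, and missed the threshold (log2 -1.33, limma adjusted p = 0.16). Another probe set of its cluster, Xl.3793.2.S1_a_at, passed at log2 -1.89.

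**Figure D5:**
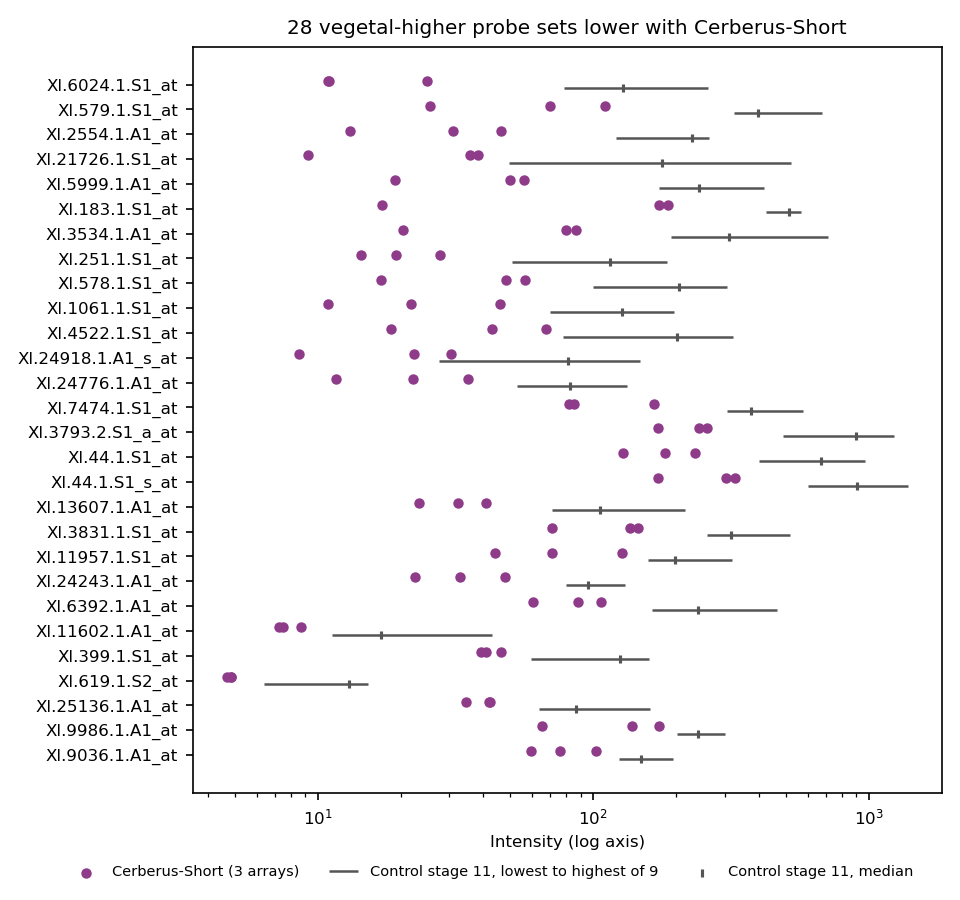
Intensity (log axis) of the 28 vegetal-higher probe sets that were lower with Cerberus-Short, with the 3 Cerberus-Short arrays as points and the 9 stage 11 controls as a line from lowest to highest with the median marked. In 27 of the 28 every Cerberus-Short point lies left of the whole control line, the exception being Xl.24918.1.A1_s_at.

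With the Mixer morpholino few members passed. Of the 367, 1 was lower and 1 higher, against 0.013% and 0.0194% of all probe sets, and of the 371 none passed by limma. At an unadjusted p under 0.05 there were 77 (21.0%) of the 367 and 84 (22.6%) of the 371, against 1250 (8.09%) of all. Of the 77, 54 were higher and 23 lower, and of the 84, 11 were higher and 73 lower. Over all probe sets 796 were higher and 454 lower. The lower one was Xl.6024.1.S1_at, which decreased 5.77-fold (limma adjusted p = 0.00497) and is also the probe set with the largest Cerberus-Short decrease. The higher one, Xl.7751.1.S1_at, named after its values were seen, had 386.7 and 207.2 with the Mixer morpholino, against 33.4 to 124.7 in controls, close to the threshold (limma adjusted p = 0.0499). The medians of the sets had opposite signs, at 0.184 for the vegetal-higher and -0.361 for the vegetal-lower set, against -0.0113 over all. Mixer-MO replicate 2 had a beta-actin difference of 1.49, next to that of vegetal replicate 2, and its part in these medians was not tested.

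With the Sox17 morpholinos 7 of the 367 (1.91%) were lower and 2 higher, against 0.686% and 0.265% of all probe sets. Of the 371, 5 (1.35%) were lower and 1 higher. These are small counts, and the medians were -0.0907 and 0.0265, against 0.0401 over all. At an unadjusted p under 0.05 there were 64 (17.4%) of the 367 and 48 (12.9%) of the 371, against 1267 (8.2%) of all. Of the 64, 47 were lower and 17 higher, and of the 48, 31 were lower and 17 higher. Over all probe sets 832 were lower and 435 higher. The examples that follow were chosen after their values were seen. Xl.781.1.S1_at, with 2377 and 1556 in vegetal explants against 287.8 and 325 in equatorial explants, had 507.9, 163.3 and 195.6 with Sox17 morpholinos, against 521.7 to 870.9 in controls (log2 -1.37, limma adjusted p = 0.0125). All 3 injected arrays lay below all controls, while with Cerberus-Short it read 609.3, 380.8 and 893.3, around the control median of 650.6.

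Xl.6392.1.A1_at, with 570.6 and 507.6 in vegetal explants against 76.5 and 94.8 in equatorial explants, was low with both reagents. It had 70.4, 108.4 and 83.8 with Sox17 morpholinos and 106.5, 87.8 and 60.3 with Cerberus-Short, against 163.1 to 463.5 in controls. Xl.183.1.S1_at, with 1446 and 1820 in vegetal explants against 178.1 and 162.9 in equatorial explants, was low with Cerberus-Short and near the controls with Sox17 morpholinos. It had 456.2, 582.6 and 487.9 with Sox17 morpholinos and 186.9, 172.8 and 17.2 with Cerberus-Short, against a control median of 512.5. Whether the reagents differ in their effect on these probe sets was not tested.

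The identifiers themselves differed between the sets. Probe sets whose ending marks several possible transcripts made up 27 of the 367 (7.36%) and 74 of the 371 (19.9%), against 9.19% of all tested. The 367 came from 357 cluster numbers and the 371 from 344, so most members stood for separate clusters. In the vegetal-higher set the equatorial mean intensity was under 20 for 83 and under 50 for 180, and in the vegetal-lower set the vegetal mean was under 20 for 42 and under 50 for 128. Background signal was not measured here, and the size of such differences is less sure than their direction.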

How the data were processed

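Per the labels' protocols, 10 µg of total RNA per sample was labelled and hybridised. The deposited values are linear intensities, which the authors made by RMA, per the submitters' processing notes and the deposited checklist. The checklist also names a normalization to the stage 11 mean, which the values do not show. In intensities of 1000 and more the mark that groups digits had been written as a point, which was undone. Of 483941 values, 438140 (90.5%) were settled by their written form and 45181 were assigned from the rest of their probe set. When 5055 settled values were hidden, 5054 were recovered. Only 138 of the hidden values were 1000 or more, and 138 of these were recovered. All hidden values had a settled form, so this check does not measure the error rate of the 45181 assigned values. After 120 control and 48 undecided probe sets were left out, 15443 were tested.

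The log2 values of all 31 arrays went into 1 limma fit (version 3.58.1, R 4.3.3) with a mean per group, moderated two-sided tests and Benjamini-Hochberg adjustment. Calls in tissue and stage comparisons needed an adjusted p under 0.05 and a 2-fold change, and calls in injected embryos the adjusted p alone. The script was tested on simulated data. Named probe sets are the 15 largest differences in each direction among calls whose groups do not overlap. Members and lists were chosen with earlier results of these data known. No table used here pairs probe sets with genes (0 matched), so gene lists and the targeted genes were left out. Vegetal and equatorial arrays with the same replicate number did not deviate together (r = 0.0108 over probe sets, 2 pairs), so the number was not used as a block. The title letter was not used as a block in the main fit either, although arrays sharing a letter were correlated (0.409 in the random-block alternative). Alternatives covered the arrays in the fit, blocks, scaling, a low filter, a pseudocount, weights, the variance trend, assigned values and each array left out.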

Additional observations from a re-analysis of the deposited data

Results flagged for a closer look

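In 60 groups of 4 or more samples checked over the named probe sets, 6 held an array whose gap to the nearest other array was over Dixon's limit, and chance flags about 1 in 20 groups. In stage 11 controls, Xl.3534.1.A1_at read 715 in replicate 9, against a control median of 311.6. Xl.4294.1.A1_at read 545.6 in the same replicate, against a median of 322.7. Xl.2511.2.S1_x_at read 424.5 in control replicate 7, the lowest of 9 with a median of 1051. At stage 18, Xl.3534.1.A1_at read 454.4 in replicate 2, against 1024 to 1188 in the others, and Xl.5408.1.A1_at read 106.7 in the same replicate, against 308.4 to 361.7. Xl.14676.1.A1_at read 783.3 in stage 18 replicate 3, against 546.4 to 549 in the others.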

How the results depend on the processing

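Counts are given as vegetal-higher, then vegetal-lower. With 2 arrays a group, the 4 arrays alone gave 97 and 102 calls, the explants alone 245 lower, and the replicate block, with 1 residual degree of freedom, 0 and 0 by limma, with 2399 probe sets at an unadjusted p under 0.05. The title letter as a fixed block gave 512 and 837 calls, of which 291 and 297 were among the original calls. As a random block it gave 629 and 882, with 359 and 368 of the original calls. In that fit, arrays sharing a letter had a correlation of 0.409 over probe sets. The main fit leaves this out and treats the arrays as independent. Leaving out 1 array at a time gave 154 to 386 higher and 106 to 639 lower. For the members, the fixed letter gave 35 vegetal-higher lower in the egg, 29 vegetal-lower higher and 76 lower in it, and 85 vegetal-lower higher at stage 18. The eggs have a title letter that no other array carries, so a fixed block cannot adjust the egg comparison for the letter. Its egg counts are therefore no check on that comparison. The random letter gave 116 vegetal-higher higher in the egg, and 126 vegetal-lower higher and 226 lower in it. At stage 18 it gave 70 and 102 higher. The shares of all probe sets under the block fits are not given here, so these counts cannot be set against the shares of the main fit. Without the dimmest 40% of probe sets 24 of 256 vegetal-higher members were higher at stage 18, and with a pseudocount of 16 it was 26 of 290. In the main fit it was 46 of 367. Leaving out single arrays, vegetal-higher members lower with Cerberus-Short numbered 18 to 30, and vegetal-lower ones 0 to 2. Vegetal-higher members numbered 15 to 49 higher and 41 to 69 lower in the egg, and vegetal-lower ones 5 to 100 and 59 to 145. Members higher at stage 18 numbered 12 to 50 and 10 to 82. The sets themselves changed in size with the array left out, and the shares of all probe sets in those fits are not given here. The cause of these changes was not tested. For the 30 named probe sets, 458 of 497 values kept direction and call, 39 kept direction and lost the call, 30 of them under the replicate block, and 0 reversed. Named probe sets left out of an alternative have no value in it, so their calls were not checked there. The alternative without probe sets holding an assigned value left out several, among them the largest difference in each direction. It also left out the probe set with the largest Cerberus-Short decrease. That alternative gave 290 vegetal-higher calls, 19 of them lower with Cerberus-Short, against 28 of 367 in the main fit. The 2 arrays per explant limit precision, and signal over background was not analysed.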

Other observations

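One cluster number held members of both sets, and it was picked out after its values were seen. Xl.7474.1.S1_at had 1618 and 1537 in vegetal explants, against 182 and 139 in equatorial explants (log2 3.31). Xl.7474.2.A1_at had 799 and 178.5 in vegetal explants, against 1235 and 1039 in equatorial explants (log2 -1.58), with the low value in vegetal replicate 2.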
